A study of Mus musculus with 18 samples.

Results

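The prefrontal cortex of 5xFAD mice given PBS was compared with that of wildtype mice given PBS, across all genes in the deposited table. The 6 libraries of this comparison, 3 of each genotype, were chosen by their labels from the 18 libraries of the series. The mice were male, the wildtype mice were C57BL6J, and both groups received PBS into a vein every 3 days, 10 times, between 5 and 6 months of age. The series also holds hippocampus from the same groups, and both tissues from 5xFAD mice that received vesicles from human breast milk. The mice had been through behavioural tests, and were perfused with ice-cold PBS before RNA was taken. Nothing in the labels ties each replicate to its own mouse. The p-values therefore describe the spread among these libraries, part or all of which may be technical.

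5xFAD mice carry human transgenes, APP among them, with familial Alzheimer mutations. The transgenes are driven by the Thy1 promoter, which is active in neurons, so the model has amyloid deposition but no mutation in the mouse's own App. Amyloid plaques form early in the deep cortical layers and the subiculum of these mice. Microglia, the resident phagocytes of the brain, gather at plaques and there switch on a set of genes that depends in large part on the receptor Trem2 and its adaptor Tyrobp. Astrocytes near plaques become reactive and raise Gfap. Neurons express another group of genes, the immediate early genes such as Arc, Fos and Egr1, within minutes of strong activity.

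The 6 libraries held 30806460 to 36365571 reads in the 18683 genes listed, as recovered from the steps of the FPKM values. Of these genes, 13055 reached 0.5 FPKM in 3 or more of the 9 prefrontal libraries and were tested. Markers of neocortex, among them Tbr1 and Slc17a7, summed to 538 to 648 FPKM, against 450 to 551 FPKM in the 6 hippocampal PBS libraries. The 5 markers of hippocampus summed to 31.9 to 48.1 FPKM, against 81.8 to 118 FPKM there. Striatal and red cell markers set single libraries apart. The 5 markers of striatum, a region below the cortex, summed to 298 FPKM in wildtype replicate 3 and 242 FPKM in 5xFAD replicate 3. The other 4 libraries held 98.9 to 175 FPKM. The 3 red cell markers summed to 59.0 FPKM in wildtype replicate 2 and 23.4 FPKM in 5xFAD replicate 2, against 1.74 to 3.69 FPKM in the others.

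Most of the genes that differed between the genotypes were higher in 5xFAD cortex, and the largest differences were in genes of microglia. In limma's test on log2(FPKM + 0.5), with Benjamini-Hochberg adjustment over all genes tested, 238 genes rose and 18 fell at an adjusted p under 0.05. These are 1.82% and 0.138% of the genes tested, or 1.96% together. The median log2 fold change was 0.02 over all genes tested. Over the genes that rose it was 0.90, with a range of 0.39 to 6.43, and over those that fell it was -0.93, with a range of -2.31 to -0.38. Fold changes are on the log2(FPKM + 0.5) scale and understate the change of genes with low values. None of the 256 genes had overlapping groups, whereas 14.7% of all genes tested had groups that did not overlap (9.75% with 5xFAD higher and 4.99% with 5xFAD lower). Some genes were below 0.5 FPKM in all 3 wildtype libraries and reached the test only through other libraries. Among the genes named here they were Clec7a, Itgax, Ch25h, Ccl4, Hcst, Btk, Lat2, Cd36, Fcgr4, Tlr1, Tlr2, Tlr9, H2-Oa, Ccl2, Casp4, Cybb, Apobr, Mmp2, Cd44, Aspg, Ngp, Pdcd1, Gpr84 and Ly9. Of the genes that rose, 127 belonged to at least 1 of the 58 gene lists described here, and 13 of the 18 that fell did. Leaving out 1 library reduced the count to between 141 and 218 genes. The reduction exceeded 1.5-fold without wildtype replicate 1 (143), wildtype replicate 3 (157) or any of 5xFAD replicates 1 (146), 2 (144) and 3 (141), and 111 genes that rose and 1 that fell were called in every such fit (0.85% and 0.00766% of the genes tested). With the replicate number as a block, 206 genes rose (1.58%) and 12 fell (0.0919%), and 198 (1.52%) and 8 (0.0613%) were called both ways.

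**Figure D1:**
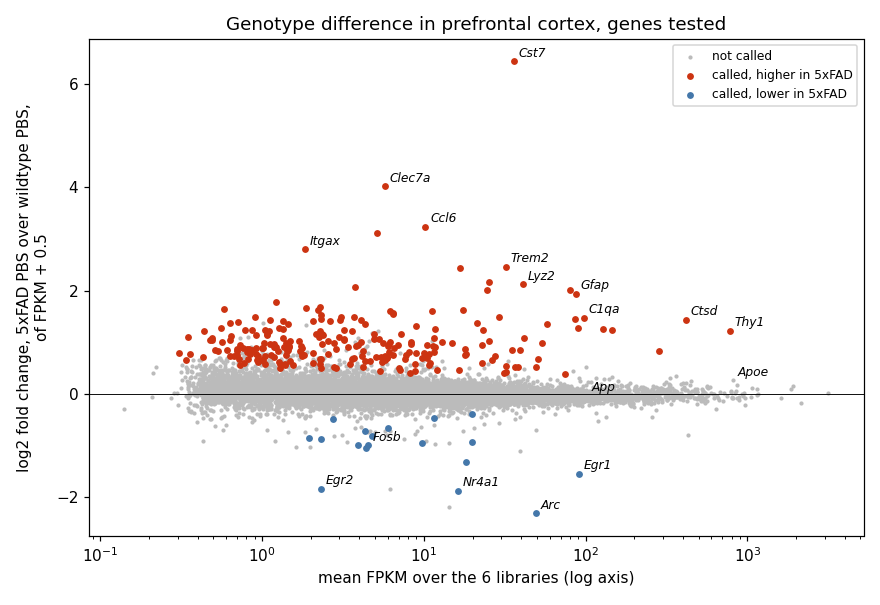
Log2 fold change (5xFAD PBS over wildtype PBS, of FPKM + 0.5) against mean FPKM over the 6 prefrontal libraries on a log axis, 1 point per gene tested. Red points are the 238 genes called higher and blue points the 18 called lower at an adjusted p under 0.05; Cst7 stands farthest from 0, at 6.43.

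The mouse gene App was read first. App was at 107, 97.8 and 105 FPKM in wildtype replicates 1, 2 and 3, and at 102, 100.3 and 98.9 FPKM in 5xFAD replicates 1, 2 and 3. The groups overlapped, with a log2 fold change of -0.03 (SE 0.07, adjusted p = 0.998). How reads of the human transgenes were handled in the alignment to the mouse genome is not given in the sources used here, so App does not check the genotype labels. Thy1, a neuronal surface glycoprotein whose promoter drives the transgenes, was at 494, 481 and 433 FPKM in wildtype libraries and at 1094, 1151 and 1048 FPKM in 5xFAD libraries. Every 5xFAD library was thus above every wildtype library, and Thy1 rose by a log2 fold change of 1.23 (SE 0.14, adjusted p = 0.000948), the largest rise in mean FPKM of any gene called. It was called without each library in turn. Whether reads of the transgenes were counted under Thy1 was not tested. Thy1 was the 1 gene called among 13 genes for APP processing and the transgenes. The others had log2 fold changes from -0.26, for Psen2, to 0.24, for Adam17, an alpha-secretase.

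Genes found in all microglia were higher in 5xFAD cortex. Of 16 such genes, all tested, 12 rose, with a median log2 fold change of 0.96. Ly86, which partners the receptor Cd180, was at 7.72, 10.1 and 7.11 FPKM in wildtype and 24.4, 26.5 and 28.5 FPKM in 5xFAD libraries. The groups lay well apart, and the log2 fold change was 1.63 (SE 0.13, adjusted p = 0.000134). Laptm5, a lysosomal membrane protein of blood and microglial cells, went from 15.01 ± 0.143 to 43.0 ± 3.62 FPKM (mean ± SD, n = 3). Ptprc, the pan-leukocyte phosphatase CD45, went from 0.464 ± 0.142 to 1.74 ± 0.216 FPKM. Coro1a, an actin regulator, was the 1 gene of this list with a negative value, at -0.07 (SE 0.15). Summed over the list, wildtype libraries held 189 to 232 FPKM and 5xFAD libraries 408 to 430 FPKM. In bulk tissue, more cells of a type and more RNA per cell cannot be told apart.

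Homeostatic genes, which mark microglia of the undisturbed brain and are known to decline in cells at plaques, were also higher. Of 18, all tested, 12 rose and none fell, with a median log2 fold change of 0.74. With the replicate number as a block, the count was 7. Cx3cr1, the fractalkine receptor, was at 13.9, 15.5 and 16.8 FPKM in wildtype and 32.5, 27.3 and 31.2 FPKM in 5xFAD libraries. Each 5xFAD library was above all 3 wildtype libraries, and the log2 fold change was 0.95 (SE 0.13, adjusted p = 0.00303). Olfml3, a secreted protein, rose from 13.8 ± 3.45 to 32.8 ± 0.786 FPKM. Csf1r, the receptor on which microglia depend for survival, rose from 24.8 ± 1.43 to 45.2 ± 0.901 FPKM. Gpr34 and P2ry6, receptors for lysophospholipids and for UDP, rose by 0.94 (SE 0.16) and 0.90 (SE 0.17). P2ry6 was not called with the block (adjusted p = 0.0563). Tmem119, a surface marker of microglia, was at 11.3, 13.6 and 11.7 FPKM in wildtype and 14.1, 14.3 and 16.4 FPKM in 5xFAD libraries. The 2 groups did not overlap for Tmem119, but its log2 fold change of 0.29 (SE 0.12) was not called (adjusted p = 0.533). Sall1, a transcription factor of homeostatic microglia, was not called either (0.38, SE 0.14, adjusted p = 0.391). The count was 5 to 7 without any 1 of wildtype replicates 1 and 3 and the 3 5xFAD replicates.

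Genes of plaque-associated microglia showed the widest changes. Of 33, all tested, 22 rose, with a median log2 fold change of 1.24, and 1, Fabp5, had a negative value. Of the 33, 5 were below 0.5 FPKM in all 3 wildtype libraries. Cst7 (cystatin F, an inhibitor of cysteine proteases) was at 0.144, 0.324 and 0.586 FPKM in wildtype libraries and at 78.4, 66.4 and 70.0 FPKM in 5xFAD libraries. No other gene had so large a fold change in this test, at 6.43 (SE 0.18, adjusted p = 4.98e-08), and the ratio of the mean FPKM values was 204. Clec7a, the beta-glucan receptor dectin-1, was at 0.198, 0.267 and 0.205 FPKM against 11.1, 11.5 and 11.1 FPKM, a log2 fold change of 4.02 (SE 0.12). The 5xFAD values of Clec7a had an SD of 0.258 FPKM. Itgax, the integrin subunit CD11c, went from 0.0743 ± 0.0365 to 3.59 ± 1.02 FPKM. Trem2, the lipid-sensing receptor of microglia, was at 6.95, 12.5 and 9.77 FPKM against 57.4, 53.5 and 52.9 FPKM. Its lowest 5xFAD value was above 4 times its highest wildtype value, and the log2 fold change was 2.47 (SE 0.17, adjusted p = 6.27e-05). Lyz2 (lysozyme), Cd68 (a lysosomal glycoprotein of phagocytes) and Cd52 (a small surface glycoprotein) rose by 2.13 (SE 0.20), 2.17 (SE 0.16) and 2.44 (SE 0.15).

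Members of the same list that are often named beside these genes were not called. Apoe, the apolipoprotein of astrocytes and reactive microglia, was at 649, 901 and 675 FPKM in wildtype and 829, 913 and 902 FPKM in 5xFAD libraries. Wildtype replicate 2 lay within the 5xFAD range, and the log2 fold change was 0.26 (SE 0.13, adjusted p = 0.689). Spp1, osteopontin, was at 8.39, 14.2 and 7.74 FPKM against 15.4, 11.02 and 21.5 FPKM, with overlapping groups and an adjusted p of 0.593. Gpnmb, a transmembrane glycoprotein of lipid-laden phagocytes, was at 1.79, 1.97 and 0.957 FPKM against 3.89, 2.07 and 3.86 FPKM. Its groups did not overlap, but 5xFAD replicate 2 was close to the wildtype libraries and the adjusted p was 0.183. Wildtype replicate 2, the library with high red cell markers, also had the highest wildtype Apoe, Spp1 and Gpnmb; the part of that library's composition in these values was not tested.

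**Figure D2:**
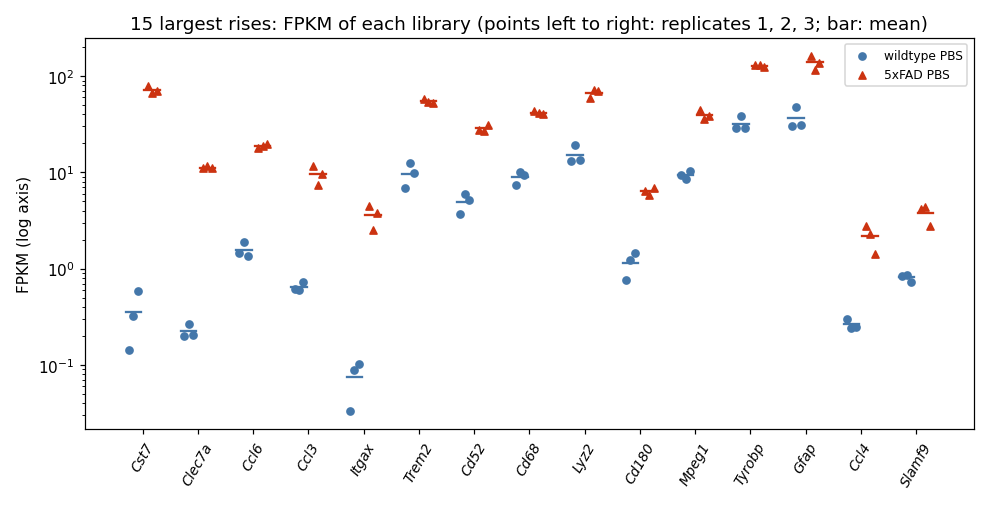
FPKM of each library on a log axis for the 15 genes with the largest log2 rises whose groups do not overlap and whose 5xFAD mean is at least 1 FPKM. Circles are the 3 wildtype PBS libraries, triangles the 3 5xFAD PBS libraries and bars the group means; from Cst7 (0.351 to 71.6 FPKM) to Slamf9 (0.810 to 3.77 FPKM), all triangles lie above all circles.

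Genes for adaptors and signalling proteins of the Trem2 pathway rose in part, as RNA. Signalling itself was not measured. Of 17 genes 15 were tested, 8 rose, and the median log2 fold change was 0.68. Of the 15, 3 were below 0.5 FPKM in all 3 wildtype libraries. Tyrobp, the adaptor that carries the Trem2 signal, was at 28.8, 38.3 and 28.7 FPKM in wildtype and 131, 131 and 124 FPKM in 5xFAD libraries. The log2 fold change of Tyrobp was 2.01 (SE 0.14, adjusted p = 6.27e-05). Ptpn6, the phosphatase SHP-1, rose from 1.99 ± 0.376 to 6.18 ± 0.0979 FPKM. Lat2 and Vav1, an adaptor and an exchange factor for small GTPases, rose by 1.14 (SE 0.14) and 0.92 (SE 0.11). Hcst, another adaptor of Trem2, rose from 0.130 ± 0.0606 to 1.14 ± 0.228 FPKM, a call that was lost with the block (adjusted p = 0.0728) and without each library in turn. The count for the list was 5 without any 1 of replicates 1 and 3 of either genotype, and 5 after quantile normalisation. Among receptors and ligands of colony stimulating factors, Csf1r, Csf3r and the ligand Csf1 rose, and the other Csf1r ligand, Il34, was at 24.5 ± 0.622 and 22.5 ± 1.61 FPKM without a call. Among TAM receptors and engulfment genes 4 of 13 rose. They were Dock2 and Itgb5, at 0.96 (SE 0.12) and 0.87 (SE 0.10), the TAM ligand Pros1, and Axl, whose 0.56 (SE 0.10) was not called without any 1 of 5xFAD replicates 1 and 3 and wildtype replicates 1 and 3. The count was 2 without 5xFAD replicate 3. Mertk and Tyro3, the other TAM receptors, were not called (adjusted p = 0.595 and 0.998).

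Few transcription factors of microglia were called. Of 20, 18 were tested and 5 rose, with a median log2 fold change of 0.27, and 2 were called with the replicate block and 1 after quantile normalisation. Without 1 library the count was 1 (wildtype replicate 1 or 5xFAD replicate 1), 2 (5xFAD replicate 2 or 3) or 3 (wildtype replicate 2 or 3). Irf8, a lineage factor of myeloid cells, was at 0.910, 1.76 and 1.67 FPKM in wildtype and 4.78, 4.43 and 4.64 FPKM in 5xFAD libraries. It rose by 1.42 (SE 0.17, adjusted p = 0.00111) and kept its call without each library. Ikzf1, a zinc finger factor of blood cells, rose by 0.63 (SE 0.11, adjusted p = 0.0179). Irf5 and Cebpa rose by 0.83 and 0.74, and both lost their call with the block (adjusted p = 0.064 and 0.0654). Spi1, which encodes PU.1, the pioneer factor of the myeloid lineage, was at 1.99, 4.44 and 2.59 FPKM against 5.73, 6.60 and 5.42 FPKM. Its groups did not overlap, and its log2 fold change of 0.93 (SE 0.21) was just outside the threshold (adjusted p = 0.0623).

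PU.1 binds a purine-rich core, and the promoters of the genes that rose were searched for 1 form of it, GAGGAAGT, on both strands. The windows were the 250 bases before each start in RefSeq's mouse annotation (GRCm38.p6), available for 10413 of the 13055 genes tested. The letters were found in 19 of the 184 genes that rose and had a window (10.3%), and in 283 of the 10413 (2.72%). Of the plaque-associated genes with a window 1 of 26 held them (3.85%), and of the genes of all microglia 1 of 13 (7.69%). None of the 12 genes that fell and had a window held them. The 3 windows below belong to genes with a match and a role in the changes described here: C1qc, a chain of complement C1q; Slamf9, among the 15 largest rises; and Inpp5d, the phosphatase SHIP1 and an Alzheimer risk gene. Capitals mark the letters GAGGAAGT or, on the other strand, ACTTCCTC, and each window is written 5′ to 3′ along its gene. The windows lie at chr4:136892915-136893164 (minus strand), chr1:172475110-172475359 (plus strand) and chr1:87620062-87620311 (plus strand) of GRCm38.p6.
C1qc: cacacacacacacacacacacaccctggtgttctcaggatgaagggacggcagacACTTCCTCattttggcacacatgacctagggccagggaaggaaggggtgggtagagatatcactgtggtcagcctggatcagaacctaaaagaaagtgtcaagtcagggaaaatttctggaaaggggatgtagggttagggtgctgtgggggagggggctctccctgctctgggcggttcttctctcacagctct
Slamf9: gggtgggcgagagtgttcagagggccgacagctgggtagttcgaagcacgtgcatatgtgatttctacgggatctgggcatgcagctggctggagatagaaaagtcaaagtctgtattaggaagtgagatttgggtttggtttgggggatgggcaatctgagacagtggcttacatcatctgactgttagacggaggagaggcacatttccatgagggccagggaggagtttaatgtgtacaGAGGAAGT
Inpp5d: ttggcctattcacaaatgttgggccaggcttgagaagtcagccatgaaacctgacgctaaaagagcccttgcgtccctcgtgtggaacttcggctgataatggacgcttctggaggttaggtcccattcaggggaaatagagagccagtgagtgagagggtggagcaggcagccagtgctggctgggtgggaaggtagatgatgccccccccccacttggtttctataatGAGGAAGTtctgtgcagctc
The match starts 195 bases before the start of C1qc, 8 before that of Slamf9 and 20 before that of Inpp5d. Slamf9 rose from 0.810 ± 0.0778 to 3.77 ± 0.861 FPKM, and Inpp5d from 2.65 ± 0.378 to 4.54 ± 0.347 FPKM. A match of letters is a description of these windows, not a bound site.

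Receptors for antibodies and microbial products rose, and so did complement. Of 6 Fc receptor genes, all tested, 5 rose, with a median log2 fold change of 1.04. Fcgr2b, the inhibitory receptor, was at 2.11, 3.88 and 2.54 FPKM in wildtype and 9.02, 10.3 and 8.93 FPKM in 5xFAD libraries, a rise of 1.60 (SE 0.18). Fcgrt, the neonatal receptor that protects antibodies from breakdown, was at 8.83 ± 1.85 and 8.5004 ± 1.19 FPKM without a call. The Fc receptor count was 2 without wildtype replicate 1 or 3, and 3 without any of the 5xFAD replicates. Of 16 Toll-like receptor genes and partners 12 were tested and 7 rose. Of the 12, 3 were below 0.5 FPKM in all 3 wildtype libraries. Cd180, a Toll-like receptor relative, rose from 1.14 ± 0.354 to 6.35 ± 0.508 FPKM and Cd14, a co-receptor, from 1.38 ± 0.191 to 4.77 ± 0.409 FPKM. Tlr2 and Tlr7, for bacterial lipoproteins and single-stranded RNA, rose by 1.25 (SE 0.13) and 0.90 (SE 0.11). Tlr3, for double-stranded RNA, was not called (0.14, SE 0.11, adjusted p = 0.934).

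Of 21 complement genes 15 were tested and 9 rose, with a median of 0.73. The 3 chains of C1q, which starts the classical pathway, were among the highest of the genes that rose. C1qa was at 46.1, 63.2 and 46.5 FPKM in wildtype and 146, 144 and 141 FPKM in 5xFAD libraries, a log2 fold change of 1.47 (SE 0.14, adjusted p = 0.000354). The 5xFAD libraries were close to each other, and the spread was wider in wildtype, where replicate 2 was the highest. C1qb and C1qc rose by 1.29 (SE 0.14) and 1.44 (SE 0.15). C4b, which acts next in the cascade, rose from 2.99 ± 0.396 to 9.91 ± 1.94 FPKM, and C3ar1, the receptor for a fragment of C3, from 0.601 ± 0.0557 to 2.30 ± 0.193 FPKM. Itgb2, which encodes a chain of complement receptor CR3, rose by 1.36 (SE 0.17). C1ra, C2 and Cfp, a protease, a protease and a stabiliser of the cascade, were not called and had overlapping groups. C3 itself was below the minimum level and was not tested.

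Antigen presentation genes rose in both classes. Of 13 class I genes 12 were tested and 6 rose, with a median of 0.49. B2m, the light chain of class I, was at 209, 243 and 167 FPKM in wildtype and 356, 395 and 340 FPKM in 5xFAD libraries, a log2 fold change of 0.83 (SE 0.14, adjusted p = 0.0111). The call was lost without 5xFAD replicate 2. Tap1, which moves peptides into the endoplasmic reticulum, rose from 0.800 ± 0.041 to 2.16 ± 0.0909 FPKM and kept its call without each library. H2-K1 and H2-D1 rose by 0.60 (SE 0.09) and 0.69 (SE 0.13), the latter not with the block (adjusted p = 0.0567). Reads of these heavy chain genes may be split between near-identical copies. The class I count was 3 without wildtype replicate 1 or 3 or 5xFAD replicate 1, and 2 without 5xFAD replicate 2. Of 9 class II genes 7 were tested and 3 rose. Cd74, the invariant chain, was at 5.28, 6.36 and 4.41 FPKM against 13.8, 19.1 and 18.8 FPKM, a rise of 1.60 (SE 0.20, adjusted p = 0.00197). H2-Oa and H2-DMb1, which tune peptide loading, rose by 1.498 (SE 0.22) and 1.09 (SE 0.19). The class II chains themselves, H2-Aa and H2-Ab1, had log2 fold changes of 1.02 (SE 0.29) and 0.999 (SE 0.30) and were not called (adjusted p = 0.172 and 0.217). For H2-Aa, wildtype replicate 2, at 4.27 FPKM, was level with 5xFAD replicate 1, at 4.26 FPKM.

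Interferon-stimulated genes were higher in 5xFAD cortex, but with a wide spread in wildtype. Of 24, 22 were tested and all 22 had positive values, against 57% of all genes tested, with a median of 0.81. Of these 6 rose. The count was 2 with the replicate block or with only the 2 groups compared in the fit, and 1 after quantile normalisation or with no filter on low values. Ifit3, an inhibitor of viral translation, was at 9.36, 8.93 and 4.21 FPKM in wildtype and 12.5, 15.4 and 17.3 FPKM in 5xFAD libraries. Wildtype replicate 3 was well below the other wildtype libraries, and the log2 fold change of 1.03 (SE 0.25) was not called (adjusted p = 0.0908). Isg15, a ubiquitin-like modifier, was at 7.97, 5.78 and 2.33 FPKM against 7.73, 8.87 and 9.87 FPKM, with overlapping groups. Zbp1, a sensor of nucleic acids, rose from 0.346 ± 0.161 to 1.11 ± 0.0930 FPKM and was called without each library. Oas1a, Parp14, Trim30a, Ifih1 and Ifit2 made up the rest of the calls, at 0.52 to 1.09, and 4 of these 5, all but Ifih1, lost their call with the block. Summed over the list, wildtype replicate 3 held 51.9 FPKM, the other wildtype libraries 98.7 and 114 FPKM, and 5xFAD libraries 132 to 160 FPKM. Without wildtype replicate 3 the count was 1 and the median 0.55. Without wildtype replicate 1 it was 7, and without any 1 of the other 4 libraries 1 or 2. Among 12 interferon-inducible GTPases, all tested, all had positive values and none was called, with a median of 0.52. Reads of the Ifit, Oas and Trim30 genes may be split between close copies.

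A minority of chemokine and cytokine genes was called. Of 20 chemokines and receptors 15 were tested and 4 rose, with a median of 0.36 and 4 negative values. Ccl6 was at 1.46, 1.91 and 1.34 FPKM in wildtype and 18.1, 18.7 and 19.8 FPKM in 5xFAD libraries, a rise of 3.23 (SE 0.14, adjusted p = 1.32e-06). Ccl3 rose from 0.650 ± 0.0705 to 9.63 ± 2.14 FPKM and Ccl4 from 0.264 ± 0.0324 to 2.18 ± 0.705 FPKM. Both draw in monocytes and T cells. Ccl2, another monocyte attractant, was at 0.359 ± 0.073 and 0.394 ± 0.220 FPKM, and Ccl5, which draws in T cells, was at 2.35, 3.36 and 2.38 FPKM against 2.44, 0.597 and 0.658 FPKM. Neither was called, and the groups overlapped for both. Ccl12 was called with the replicate block (adjusted p = 0.030) but not without it (adjusted p = 0.243).

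Of 23 cytokine and inflammasome genes 18 were tested and 5 rose. The count was 2 without any 1 wildtype replicate, 3 without 5xFAD replicate 1 or 2 and 1 without 5xFAD replicate 3, and without 5xFAD replicate 1 the list also had 1 gene called lower, Il1rn. It was 2 after quantile normalisation and 3 with a minimum of 1 FPKM. The 5 were Tgfb1, Casp4 (a caspase that senses lipopolysaccharide), the interleukin-10 receptor Il10ra, and the TNF receptors Tnfrsf1a and Tnfrsf1b. The cytokines Tnf, Il1b and Il6 were below the minimum level and were not tested, and Il1a, Il18 and Il33 were not called and had overlapping groups. Tgfb1 was at 3.24, 4.13 and 3.36 FPKM in wildtype and 7.24, 7.25 and 8.27 FPKM in 5xFAD libraries, a rise of 0.99 (SE 0.15, adjusted p = 0.00514). Both signalling receptors of this ligand rose with it, Tgfbr2 from 4.45 ± 0.121 to 8.70 ± 0.704 FPKM and Tgfbr1 from 4.38 ± 0.432 to 7.46 ± 0.380 FPKM. These were the 3 genes called of 14 in the TGF-beta pathway, and each kept its call without each library. Tgfb2, Tgfb3 and the co-receptor Tgfbr3 were not called. Smad7, an inhibitor of the pathway, was at 3.99 ± 0.146 FPKM in wildtype and 3.11 ± 0.172 FPKM in 5xFAD libraries without a call (adjusted p = 0.172).

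Lysosomal proteases and a subset of lysosomal hydrolases rose. Of 16 cathepsins and cystatins, all tested, 9 rose, with a median of 0.45. The count was 5 without wildtype replicate 1 or 3 and 4 without 5xFAD replicate 3. Ctsd, the main aspartic protease of lysosomes, was at 217, 240 and 212 FPKM in wildtype and 638, 566 and 617 FPKM in 5xFAD libraries. Its log2 fold change was 1.44 (SE 0.10, adjusted p = 6.61e-05), and only Thy1 had a larger rise in mean FPKM among genes called. Ctsz and Ctss rose by 1.35 (SE 0.10) and 1.23 (SE 0.12). Ctsb was at 311, 336 and 305 FPKM against 412, 404 and 400 FPKM, without overlap, and missed the threshold (0.35, SE 0.08, adjusted p = 0.077). Of 32 hydrolases and membrane proteins of the lysosome, all tested, 9 rose, with a median of 0.14. Gusb, Grn, Man2b1 and Naglu rose by 1.14 (SE 0.14), 1.08 (SE 0.10), 0.91 (SE 0.11) and 0.91 (SE 0.09). Grn encodes progranulin and the other 3 encode enzymes that cut sugars. Gla, an alpha-galactosidase, was at 5.74 ± 0.897 and 5.26 ± 0.242 FPKM without a call. Of 16 subunits of the V-ATPase, the pump that acidifies lysosomes, 15 were tested and none was called, with a median of -0.06.

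The phagocyte NADPH oxidase, which makes superoxide, was higher in all 7 of its tested genes, with a median of 1.004, and 4 rose. Of all genes tested, 57% had positive values. Among them were Cyba, Hvcn1 and Ncf1, at 1.26 (SE 0.17), 1.16 (SE 0.14) and 1.004 (SE 0.15). Cybb, the catalytic subunit, was at 0.398, 0.287 and 0.196 FPKM against 0.849, 0.551 and 0.854 FPKM, and was not called (adjusted p = 0.0908). Being below 0.5 FPKM in all 3 wildtype libraries, Cybb reached the test through 5xFAD libraries, which favours a positive value. Of 5 galectin genes 2 rose, Lgals3bp and Lgals9, and Lgals3, often used as a marker of damaged lysosomes, was not called (0.44, SE 0.26, adjusted p = 0.829). The calls of Lgals3bp and Lgals9 were lost without any of the 3 5xFAD replicates.

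Genes of lipid handling showed smaller changes. Of 24 genes of lipid efflux and storage, all tested, 5 rose. The count was 1 without wildtype replicate 1 or 5xFAD replicate 1 or 3, 2 without either replicate 2, and 3 without wildtype replicate 3, and it was 2 after quantile normalisation and 3 with no filter on low values. Ch25h, which makes an oxysterol, was at 0.125, 0.234 and 0.423 FPKM against 1.35, 0.861 and 1.71 FPKM. Its log2 fold change was 1.24 (SE 0.22, adjusted p = 0.0164). Hpgds, a prostaglandin D synthase, rose from 1.15 ± 0.202 to 3.17 ± 0.127 FPKM. Lpl, lipoprotein lipase, rose from 4.34 ± 1.44 to 10.0 ± 0.904 FPKM, and lost its call with the block (adjusted p = 0.0981). The efflux pumps Abca1 and Abcg1 were not called (adjusted p = 0.815 and 0.99). Of 24 genes of cholesterol synthesis and uptake, all tested, 5 rose and 22 had positive values, against 57% of all genes tested, with a median of 0.32. Stard4, Fdps, Nsdhl and Insig1 rose by 0.41 to 0.58, and the count was 1 to 3 in each of the 6 fits without 1 library.

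Of 27 genes near Alzheimer risk variants 24 were tested and 6 rose. The 6 were Trem2, Grn, Ctsh, Abi3, Inpp5d and Plcg2. The count was 3 without wildtype replicate 1 or 3 or 5xFAD replicate 1 or after quantile normalisation, and 2 without 5xFAD replicate 3. Ctsh rose from 8.4995 ± 1.96 to 17.4 ± 1.55 FPKM, and Plcg2, a phospholipase in the Trem2 pathway, from 1.02 ± 0.0963 to 1.73 ± 0.172 FPKM. The call of Plcg2 was lost without each library in turn. Bin1, Clu and Picalm, which are expressed mainly outside microglia, had log2 fold changes of 0.12, 0.19 and 0.02 and were not called. Of 9 tested genes for enzymes that can break down amyloid-beta, only Plau, urokinase, rose (1.23, SE 0.16, adjusted p = 0.00251). Mme, neprilysin, was at 1.31, 0.975 and 3.28 FPKM against 1.499, 1.57 and 1.70 FPKM. Ide, the insulin-degrading enzyme, was at 9.52, 13.9 and 19.1 FPKM against 9.59, 8.82 and 14.96 FPKM. Wildtype replicate 3, the library with the highest striatal markers, was the highest of the 6 for both enzymes, and neither was called.

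Astrocytes showed a reactive change in few genes. Gfap, the intermediate filament of reactive astrocytes, was at 30.05, 48.1 and 30.8 FPKM in wildtype and 163, 116 and 137 FPKM in 5xFAD libraries. Every 5xFAD library was above 2 times every wildtype library, and the log2 fold change was 1.94 (SE 0.17, adjusted p = 0.000272). Serpina3n, a secreted protease inhibitor, rose from 7.28 ± 1.32 to 15.8 ± 1.74 FPKM, and Osmr, the oncostatin M receptor, from 0.603 ± 0.117 to 1.25 ± 0.0875 FPKM. These were the 3 calls among 17 tested of 22 reactive astrocyte genes, with a median of 0.27. Vim and S100a6 had overlapping groups. Among 16 identity genes of astrocytes, all tested, none was called and the median was 0.01. Slc1a2, the main glutamate transporter, was at 197 ± 19.6 and 191 ± 14.5 FPKM.

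Lists for other cell types of the brain held no called gene. Genes of ependymal cells, which line the ventricles, had positive values in all 8, against 57% of all genes tested, with a median of 0.50. Of the 8, 1 was below 0.5 FPKM in all 3 wildtype libraries. They summed to 7.90 to 16.4 FPKM in wildtype and 16.5 to 23.5 FPKM in 5xFAD libraries, and the median was 0.19 without wildtype replicate 1. Other medians were -0.03 for 16 genes of myelin and oligodendrocytes, 0.14 for 9 of their precursors, 0.04 for 15 of endothelium, 0.17 for 10 of mural cells and 0.10 for 10 tested of fibroblasts. Mbp, the myelin basic protein, was at 426, 654 and 569 FPKM in wildtype and 543, 534 and 578 FPKM in 5xFAD libraries, so the wildtype range enclosed all 5xFAD values. Border macrophages, which lie outside the parenchyma and share many microglial genes, had 6 of 10 markers tested, with a median of 0.08. Their marker Mrc1 was at 1.01 ± 0.141 and 1.01 ± 0.165 FPKM. Of T and NK cell markers only Cd4 was tested, and it was at 0.533, 1.06 and 3.62 FPKM against 2.06, 2.12 and 3.28 FPKM, highest in the library with the highest striatal markers. No B cell marker reached the minimum. Neutrophil and monocyte markers summed to 0.327 to 1.58 FPKM in wildtype and 1.61 to 3.20 FPKM in 5xFAD libraries, and none was called.

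**Figure D3:**
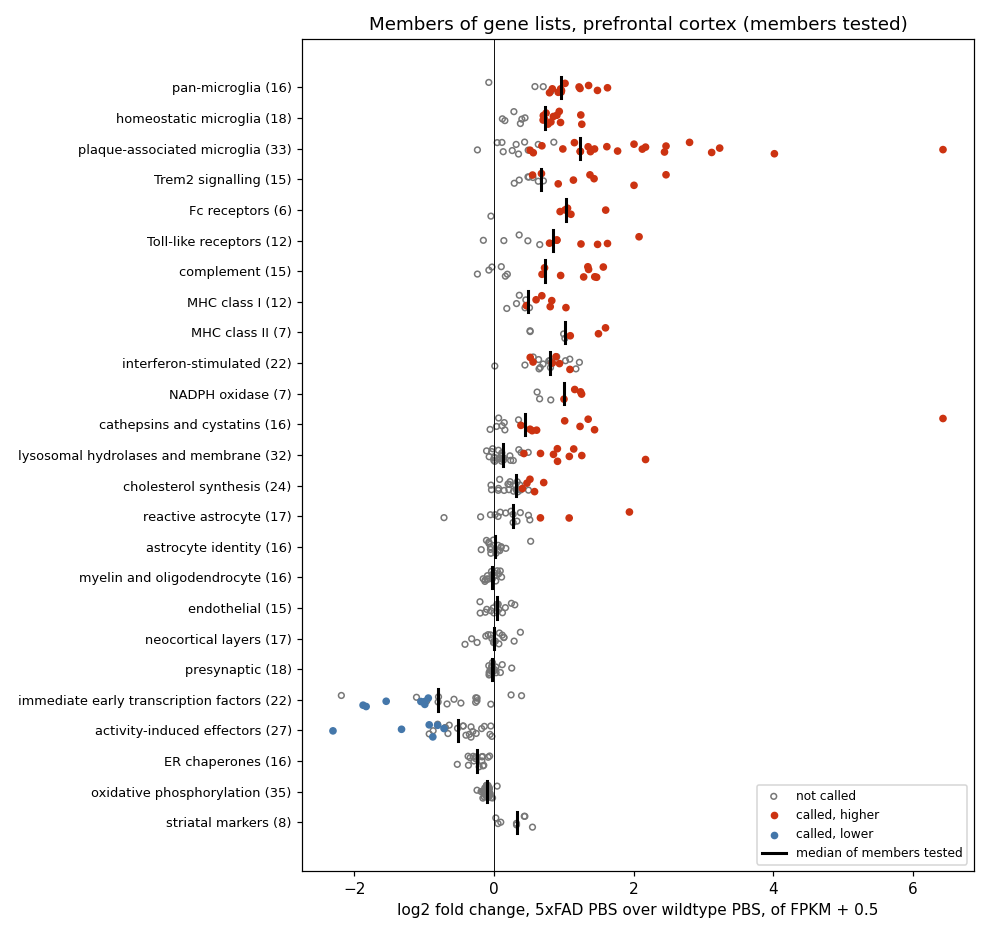
Log2 fold change of each tested member of 25 gene lists, 1 point per gene, with the number tested in brackets and a black bar at the median. Filled red and blue points are called higher and lower; the microglial lists lie right of 0 with medians up to 1.24, and the lists for immediate early and activity-induced genes lie left of 0 with medians of -0.80 and -0.52.

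The genes that fell were mostly members of the lists of genes induced by neuronal activity. Like all lists here, these were chosen with earlier results of these data known. The counts below describe these lists and are no independent test. Of 24 immediate early transcription factors 22 were tested, 20 had negative values, against 43% of all genes tested, and 7 fell, with a median of -0.80. Of 27 activity-induced effectors, all tested, all had negative values and 6 fell, with a median of -0.52. Egr2 was at 4.96, 3.09 and 3.53 FPKM in wildtype and 0.373, 0.644 and 1.26 FPKM in 5xFAD libraries. Its groups were far apart, with a log2 fold change of -1.83 (SE 0.27, adjusted p = 0.00504), and it was the 1 fall called without each library in turn. Arc, a synaptic protein whose RNA moves to active dendrites, was at 102, 76.1 and 64.1 FPKM in wildtype and 9.65, 11.2 and 34.8 FPKM in 5xFAD libraries. 5xFAD replicate 3 stood about midway between the others and the wildtype libraries, and the log2 fold change of Arc was -2.31 (SE 0.43, adjusted p = 0.0207).

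That library was the highest of the 5xFAD group for other genes of these lists. Nr4a1, an orphan nuclear receptor, was at 29.4, 24.5 and 22.2 FPKM against 4.07, 5.29 and 12.5 FPKM, a fall with a log2 fold change of -1.87 (SE 0.35, adjusted p = 0.0207). Egr1, a zinc finger factor, was at 167, 122 and 114 FPKM against 32.3, 41.9 and 68.1 FPKM (-1.54, SE 0.29, adjusted p = 0.0226). Dusp1, a phosphatase that switches off MAP kinases, was at 28.5, 26.3 and 22.8 FPKM against 7.52, 7.93 and 16.6 FPKM (-1.32, SE 0.25, adjusted p = 0.0224). Fos was at 26.4, 24.4 and 17.4 FPKM against 2.17, 3.06 and 12.96 FPKM. Although its groups did not overlap, its log2 fold change of -2.19 (SE 0.56) was not called (adjusted p = 0.11). Junb, a partner of Fos, was at 59.2, 51.6 and 46.9 FPKM against 17.3, 20.4 and 39.0 FPKM and was not called (adjusted p = 0.146), and Jun had overlapping groups.

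Fosl2, Fosb, Nr4a3 and Klf10, all transcription factors, fell by 1.05 (SE 0.20), 0.99 (SE 0.19), 0.99 (SE 0.18) and 0.94 (SE 0.20) on the log2 scale. Dusp6 and Dusp4, further MAP kinase phosphatases, fell by 0.93 (SE 0.19) and 0.88 (SE 0.15). Bdnf, the growth factor of synapses, was at 6.89, 5.23 and 4.39 FPKM against 2.92, 3.22 and 3.18 FPKM and fell by 0.71 (SE 0.15, adjusted p = 0.0411). Gpr3, a receptor that raises cyclic AMP, and Midn, a partner of the proteasome, fell by 0.86 (SE 0.18) and 0.65 (SE 0.12). Trib1, a pseudokinase, fell by 0.81 (SE 0.15). Nptx2 and Vgf, which act at synapses, were not called (adjusted p = 0.193 and 0.102), although their groups did not overlap.

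These calls rested on few libraries. With the replicate number as a block, 2 of the immediate early factors and 4 of the effectors were called, and Arc, Nr4a1, Egr1 and Dusp1 were among the losses (adjusted p = 0.0609, 0.065, 0.064 and 0.0579). Without any 1 of the other 5 libraries the immediate early factors had 1 to 3 calls and the effectors 0 to 3, and without 5xFAD replicate 3 they had 8 and 7. The count of falls over all genes was 1 without wildtype replicate 1, 10 without wildtype replicate 2, 11 without wildtype replicate 3, 5 without 5xFAD replicate 1, 2 without 5xFAD replicate 2 and 17 without 5xFAD replicate 3. Medians stayed negative in all 6 such fits, from -1.05 to -0.60 for the factors and from -0.62 to -0.47 for the effectors.

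**Figure D4:**
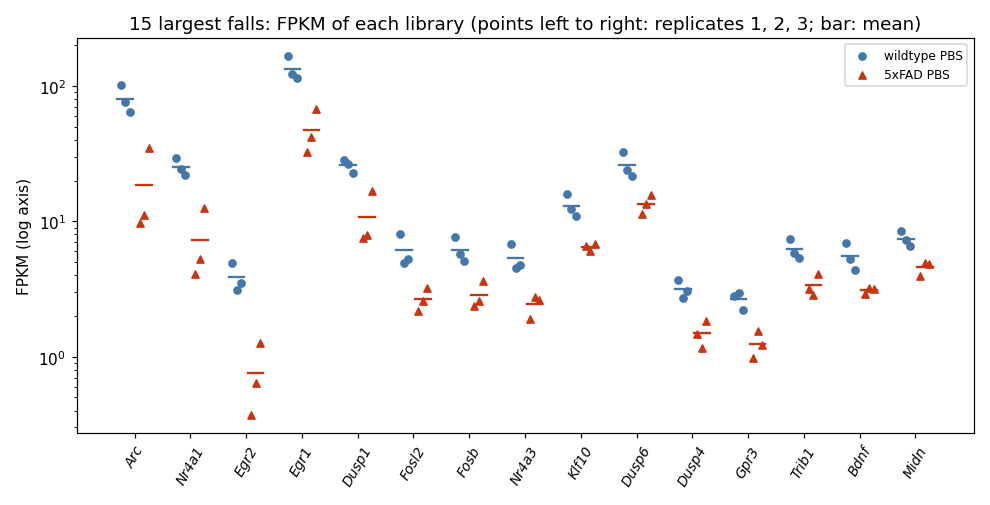
FPKM of each library on a log axis for the 15 genes with the largest log2 falls whose groups do not overlap and whose wildtype mean is at least 1 FPKM. Circles are the 3 wildtype PBS libraries, triangles the 3 5xFAD PBS libraries and bars the group means; 5xFAD replicate 3, the rightmost triangle, is the highest of its group for Arc (34.8 FPKM), Nr4a1 (12.5 FPKM) and Dusp1 (16.6 FPKM).

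Many immediate early genes are switched on through CREB, which binds the letters TGACGTCA or their core, TGACG. In the 250-base windows, the core was found on either strand in 8 of the 12 genes that fell and had a window (66.7%). It was found in 27 of the 184 that rose (14.7%) and in 3139 of the 10413 tested (30.1%). The full TGACGTCA was in 1 of the 12, Dusp1, and in 307 of the 10413 (2.95%). Nr4a1, Nr4a3 and Dusp1 are shown because they hold the most matches of the genes that fell, by windows counted singly. Capitals mark TGACG or, on the other strand, CGTCA, and in Dusp1 the last 2 matches overlap as TGACGTCA. The windows lie at chr15:101266596-101266845 (plus strand), chr4:48045055-48045304 (plus strand) and chr17:26508473-26508722 (minus strand) of GRCm38.p6.
Nr4a1: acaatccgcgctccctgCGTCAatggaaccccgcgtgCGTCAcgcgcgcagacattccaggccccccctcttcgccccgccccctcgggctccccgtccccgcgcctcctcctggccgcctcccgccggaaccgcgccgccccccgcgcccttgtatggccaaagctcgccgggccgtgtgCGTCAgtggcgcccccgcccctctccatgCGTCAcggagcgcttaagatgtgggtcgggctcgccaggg
Nr4a3: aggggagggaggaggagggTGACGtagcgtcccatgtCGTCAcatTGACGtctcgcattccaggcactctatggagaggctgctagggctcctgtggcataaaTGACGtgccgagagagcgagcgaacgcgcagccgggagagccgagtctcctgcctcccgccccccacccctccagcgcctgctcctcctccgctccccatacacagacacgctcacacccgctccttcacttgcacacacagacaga
Dusp1: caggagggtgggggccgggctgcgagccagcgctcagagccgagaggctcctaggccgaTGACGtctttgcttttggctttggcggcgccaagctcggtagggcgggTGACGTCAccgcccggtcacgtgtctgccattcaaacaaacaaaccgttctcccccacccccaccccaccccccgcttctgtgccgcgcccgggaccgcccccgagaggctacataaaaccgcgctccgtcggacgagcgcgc
Nr4a1 and Nr4a3 hold 4 matches each and Dusp1 holds 3. Another 6 forms were searched in the same way. The interferon-stimulated response element was in 18 of the 184 genes that rose (9.78%), 2 of the 12 that fell and 316 of the 10413 (3.03%). Among the interferon-stimulated genes, 8 of 16 with a window held it. CACGTG, an E-box, was in 18 of the 184 (9.78%), 3 of the 12 and 1036 of the 10413 (9.95%). GCGTGGGCG, bound by Egr factors, was in 3 of the 184 and 123 of the 10413 (1.18%). A pair of forms of the serum response element, and a form of the lysosomal CLEAR element that contains CACGTG, were in none of the called genes. They were in 0.0192%, 0.0864% and 0.557% of the 10413. These letters were searched in windows of 1 fixed length, and a factor may bind outside them or in other forms.

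Structural genes of neurons showed no call. Medians were 0.03 for 10 glutamatergic genes, -0.00 for 17 of the neocortical layers, -0.06 for 19 of GABAergic cells and neuropeptides, -0.02 for 18 presynaptic genes and 0.02 for 22 postsynaptic genes. Slc17a7, the glutamate transporter of cortical synapses, was at 528 ± 52.1 and 528 ± 14.3 FPKM, and Syp, a synaptic vesicle protein, at 675 ± 56.2 and 642 ± 20.3 FPKM. Chaperones of the endoplasmic reticulum were lower in all 16 tested genes, with a median of -0.24, and none was called. Of all genes tested, 43% had negative values. The median was -0.14 without wildtype replicate 1 and -0.36 without wildtype replicate 3, where Atf4, a transcription factor of the stress response in this list, was called lower. Hspa5, the main chaperone there, was at 181, 124 and 121 FPKM against 85.4, 105 and 101 FPKM (adjusted p = 0.172). Wildtype replicate 1, the highest for Hspa5, was also the highest for Arc and Egr1. Subunits of oxidative phosphorylation had 34 negative values of 35, with a median of -0.09 and no call. Without wildtype replicate 2 the median was 0.00 and 14 of the 35 values were negative.

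**Figure D5:**
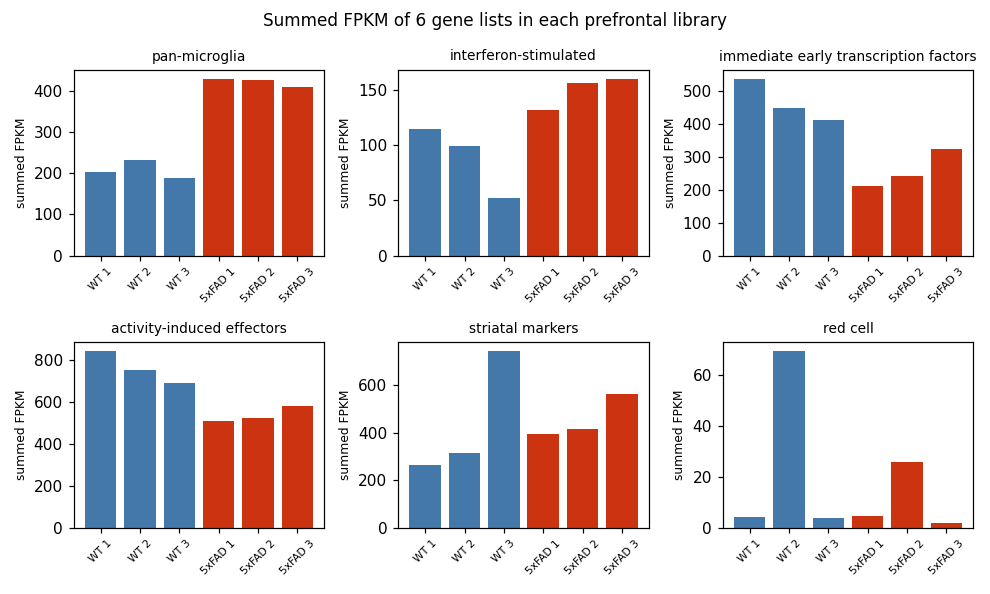
Summed FPKM of 6 gene lists in each prefrontal library, as bars from 0 for wildtype (blue) and 5xFAD (red) replicates 1 to 3. The striatal list has 8 genes and the red cell list 5, against 5 and 3 markers in the sums given earlier. The microglial sum is higher in all 5xFAD libraries (408 to 430 FPKM) than in wildtype (189 to 232 FPKM); wildtype replicate 3 is low for interferon-stimulated genes (51.9 FPKM) and high for striatal markers (744 FPKM), and wildtype replicate 2 is high for red cell genes (69.4 FPKM).

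Striatal genes differed widely among libraries of 1 genotype. The list of 8 summed to 264, 314 and 744 FPKM in wildtype and 395, 413 and 564 FPKM in 5xFAD libraries. Adora2a, a receptor of striatal projection neurons, was at 3.79, 5.52 and 20.998 FPKM against 10.2, 9.75 and 15.5 FPKM. All 8 had positive log2 fold changes, against 57% of all genes tested, with a median of 0.32, and none was called. The median was 0.83 without wildtype replicate 3, -0.02 without wildtype replicate 1, 0.13 without wildtype replicate 2 and 0.15 without 5xFAD replicate 3. In each genotype replicate 3 had the highest striatal sum. Replicate 3 was also the highest 5xFAD library for Arc and Fos and the lowest wildtype library for Arc, Egr1, Fos and the interferon genes; whether the striatal share of a library moved those values was not tested.

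The same comparison in hippocampus rested on 6 other libraries, whose replicate numbers repeat those of the cortex. No label says whether both tissues came from the same mice, and the fits below held no link between them. The difference between the 2 tissues in the genotype effect was tested over all 18 libraries on 13574 genes, and limma called 0 (0%), with 787 at an unadjusted p under 0.05 (5.8%). Voom on recovered reads called 0 as well, with 659 at an unadjusted p under 0.05 (4.85%). When only the 12 PBS libraries were fitted, 42 genes were called (0.309%), all with a larger log2 difference in hippocampus. Of the 12 genes listed for choroid plexus, the tissue that makes cerebrospinal fluid, 11 were among the 42. Ttr, transthyretin and the main secreted protein of that tissue, was at 29.7, 76.5 and 159 FPKM in wildtype and 2532, 8684 and 2697 FPKM in 5xFAD hippocampus, against 1.56 to 7.81 FPKM in the 6 prefrontal libraries. Every 5xFAD hippocampal library was thus far above every wildtype one for Ttr, and the part of choroid plexus RNA in the other tissue differences was not tested. Cst7 averaged 0.281 ± 0.124 FPKM in wildtype and 105 ± 11.2 FPKM in 5xFAD hippocampus, and its log2 fold change was 0.65 (SE 0.40) above that in prefrontal cortex (adjusted p = 0.906). Egr2 averaged 0.974 ± 0.518 and 0.406 ± 0.0769 FPKM there, and its fold change differed by 1.18 (SE 0.37, adjusted p = 0.572). Cd74 averaged 5.47 ± 3.19 and 68.6 ± 33.97 FPKM, with a difference of 1.94 (SE 0.63, adjusted p = 0.601). Over lists, the median difference, hippocampus minus prefrontal cortex, was 0.43 for plaque-associated genes, 0.45 for genes of all microglia and 0.26 for immediate early factors, and no gene in them was called.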

How the data were processed

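Total RNA was sequenced on a NovaSeq instrument after VAHTS Universal V5 library preparation, per the labels' protocols. The authors deposited 1 table of FPKM (fragments per gene, scaled to its length and to library depth) for 18683 genes in 18 libraries; fastp, HISAT2, HTSeq and GRCm39 are named in the submitters' processing notes, with no order, version or strand setting. The deposited FPKM values of each gene were whole multiples of a common step (100% of genes, relative tolerance 1e-06), from which reads per gene were recovered: 30806460 to 36365571 per library in the 6 libraries compared. Genes that reached 0.5 FPKM in 3 or more of the 9 prefrontal libraries were tested with limma 3.58.1 (R 4.3.3) on log2(FPKM + 0.5), two-sided, with Benjamini-Hochberg adjustment and a threshold of 0.05. The 3 prefrontal libraries of vesicle-treated 5xFAD mice entered the main fit for the spread, and were not compared. They also counted in the filter on low values and in the scalings tried as alternatives. Tables and figures used Python 3.11.15, pandas 2.3.3, numpy 2.4.6 and matplotlib 3.10.9. The steps were tested on simulated data.

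Genes were named by a rule: App and Thy1; the 15 largest rises and 15 largest falls among called genes without overlap and averaging 1 FPKM or more in their higher group; the 5 largest rises in mean FPKM; and, per list, up to 6 called members, the 3 uncalled members listed first and the 2 farthest from 0. The lists and members were chosen with earlier results of these data known. Other genes named as untested or as the 1 negative member of a list were added after their values were seen. The main fit did not pair libraries by replicate number, and the number entered as a block only among the alternatives below. The block was tried because deviations from the group means correlated between same-numbered libraries at 0.213, 0.509 and 0.169, all above 0.1. Wildtype replicate 3 correlated more with 5xFAD replicate 1, at 0.300, and no label states a pairing. Alternatives were other pseudocounts (0.1 and 1), filters, scalings, voom on recovered reads, a replicate block, a gene-length correction and leaving out each library. Promoter windows are RefSeq's, on GRCm38.p6. Protein sequences were not used here. Some genes that the rule names are not reported here.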

Additional observations from a re-analysis of the deposited data

How the results depend on the processing

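Of the 123 called genes that the naming rule picks, 65 were called under every alternative that gave a value, and none of the 123 changed direction. With the replicate block, 206 genes rose and 12 fell, of which 198 and 8 were also called without it; apart from the calls given above, 102 of the 123 named calls held and 21 did not. Leaving out 1 library gave 141 to 218 genes called, 124 to 208 higher and 1 to 17 lower, and ended 32 to 49 of the 123 named calls; these fits have fewer samples. With no filter on low values, 7 genes fell. Fitting only the PBS libraries gave 42 genes that differed between tissues, against 0; 11 of the 42 are choroid plexus genes, of 12 listed, and the cause of the difference between the fits was not tested. All other alternatives kept the count over all genes within 1.5 times, from 178 genes (quantile normalisation) to 280 (gene-length trend removed). Counts within single lists moved further. Quantile normalisation gave 3 Alzheimer risk genes in place of 6, 5 Trem2 signalling genes in place of 8, 2 cytokine and 2 lipid efflux genes in place of 5 each, 1 microglial transcription factor in place of 5, 1 galectin in place of 2 and 1 interferon-stimulated gene in place of 6. With no filter on low values, which adds genes to the adjustment, homeostatic genes went from 12 to 7, class I genes from 6 to 3, Fc receptor, cholesterol and lipid efflux genes from 5 to 3 each, transcription factors from 5 to 2, galectins from 2 to 1, interferon-stimulated genes from 6 to 1, immediate early factors from 7 to 1 and effectors from 6 to 2.

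Turns of direction when 1 library was left out were sought among uncalled genes picked by the naming rule. Only moves of at least the SE of the main fit were counted, and smaller turns are not listed. Genes that turned ran from -0.0091 to 0.3010 (C1ra), -0.1967 to 0.1488 (C2), -0.2856 to 0.0244 (Lgals1), -0.3239 to 0.3544 (Mme), -0.2959 to 0.0204 (Gjb6), -0.1460 to 0.1625 (Mbp) and -0.0165 to 0.4618 (Dynlrb2). Those that turned without wildtype replicate 2 ran from -1.6482 to 0.4814 (Hbb-bs), -0.1120 to 0.5082 (Grm5), -0.2629 to 0.0084 (Ndufa2) and -0.2014 to 0.0265 (Ndufa4). The cause was not tested. With 3 libraries a group, genes near the 0.5 FPKM minimum rest on few reads.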

Other observations

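Among the 111 genes that rose outside the gene lists were several inhibitory receptors best known from lymphocytes; they were chosen after their values were seen. Pdcd1, which encodes PD-1, was at 0, 0.0495 and 0.0142 FPKM in wildtype and 1.31, 1.12 and 0.981 FPKM in 5xFAD libraries, a log2 fold change of 1.65 (SE 0.15). Lag3, a receptor that dampens T cells, was at 2.77, 3.19 and 3.21 FPKM against 10.1, 10.1 and 9.40 FPKM, a rise of 1.55 (SE 0.13). Havcr2, which encodes TIM-3, rose from 1.499 ± 0.161 to 3.59 ± 0.367 FPKM, and Vsir, which encodes VISTA, from 5.405 ± 0.585 to 11.3 ± 0.459 FPKM (mean ± SD, n = 3). All 4 were called without each library in turn and with the replicate block. T cell markers summed to 0.617 to 3.69 FPKM in wildtype and 2.27 to 3.42 FPKM in 5xFAD libraries, and Cd4 was most of each sum. The other markers of that sum, Cd3e, Cd3d, Cd3g and Cd8a, were each at 0 to 0.159 FPKM in the libraries of both groups. The part of T cells in the rises of the 4 receptors was not tested.

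A further 4 rises outside the lists were also chosen after their values were seen. Cd84 and Ly9, of the SLAM family, rose by 1.41 (SE 0.14) and 1.40 (SE 0.19). Gpr84, a receptor for medium-chain fatty acids, rose by 1.44 (SE 0.16), and Slc11a1, a metal transporter of phagosomes, by 1.66 (SE 0.16). The 3 falls outside the largest 15 were Fastkd5, Spry2 and Exosc9, which fell by 0.47, 0.47 and 0.38 on the log2 scale; none was called in any fit that left out 1 library.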
